A study of Homo sapiens with 6 samples.

Results

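The keratin and claudin genes are the protein-coding rows of the expression table whose symbol is KRT or CLDN followed by a digit. There were 67 of them among 32896 rows, 48 keratins and 19 claudins, chosen by name alone and not by any measured value. RNA-seq was run on BHT101, a human thyroid carcinoma line, in 3 libraries of cells with a control plasmid and 3 of cells with an SK4 plasmid. SK4 is the calcium-activated potassium channel encoded by KCNN4. Both groups were the same line, grown alike, transfected with a lipid reagent and harvested after 48 h, and neither the promoter of the plasmid nor the share of cells that took it up is given in the sources used here. Levels are FPKM, which adjusts fragment counts for gene length and library size, so they can be compared between genes. The labels do not say whether the 3 libraries of a group were separate cultures, so each p-value reflects the spread among these libraries alone, which may be technical. The treatment label of control replicate 3 names BHT102, while its other labels name BHT101, and it was kept as a control.

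Keratins are the intermediate filament proteins of epithelial cells, and a filament forms only when a type I keratin pairs with a type II keratin. Simple epithelia such as thyroid follicles are known for KRT8 with KRT18, often joined by KRT7 and KRT19. The basal layer of stratified epithelia is known for KRT5 with KRT14, its upper layers for KRT1 with KRT10, and wounded or hyperproliferative epidermis for KRT6 with KRT16 and KRT17. Claudins are the membrane proteins that build tight junction strands. Some of them, such as CLDN1 and CLDN3, seal the space between cells, and others, such as CLDN2 and CLDN15, form ion channels across it. In bulk RNA, fewer cells with a transcript and less transcript per cell cannot be told apart.

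The estimated depth was 29700000 to 38500000 fragments per library, lowest in control replicate 3. KCNN4 was at 8.26 to 8.52 FPKM with the control plasmid against 147.7 to 184.1 FPKM with the SK4 plasmid. All 6 libraries thus matched the plasmid of their labels, which does not check the cell line. Thyroid follicular markers were nearly absent: none of 10 reached the filter of 1 FPKM in at least 3 libraries, their summed level was 0.55 to 0.66 FPKM with the control plasmid against 0.61 to 0.69 FPKM with the SK4 plasmid, and the highest, PAX8, averaged 0.35 FPKM. TG and TSHR, the genes of thyroglobulin and the thyrotropin receptor, were each at 0.01 FPKM or 0 in every library. All 6 epithelial markers passed the filter, but KRT7, KRT8, KRT18 and KRT19 among them are themselves keratins of the set described here. The others were EPCAM at 10.39 to 12.68 FPKM and CDH1, E-cadherin, at 1.59 to 1.97 FPKM. Of 7 leukocyte markers with a row, 3 passed (CD14, CD68 and ITGAM), but PTPRC averaged 0.0033 FPKM. None of 6 endothelial markers passed, and CDH5 averaged 0.0033 FPKM. Of 9 fibroblast markers, 2 passed, LUM (21.89 to 31.21 FPKM) and PDGFRA, while COL1A1 averaged 0.055 FPKM.

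The keratins of BHT101 were almost entirely of the simple epithelial kind. KRT7, KRT8, KRT18, KRT19 and KRT20 together made up 96.1% to 96.6% of the summed keratin FPKM in the 6 libraries. Epidermal suprabasal keratins added 2.47% to 2.81%, nearly all of it KRT10. Basal stratified keratins added 0.178% to 0.315%, and the activation keratins 0.286% to 0.545%. Each of the mucosal, root sheath and hair classes gave less than 0.1% in every library. Of the 48 keratins with a row, 6 had at least 1 FPKM in at least 3 libraries, 12 others reached 0.1 FPKM in at least 3, and 30 were lower. GENCODE release 29 lists 55 keratin genes of this kind, and 7 of them (KRT222, KRT28, KRT32, KRT35, KRT73, KRT74 and KRT82) had no row in the table used here.

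**Figure D1:**
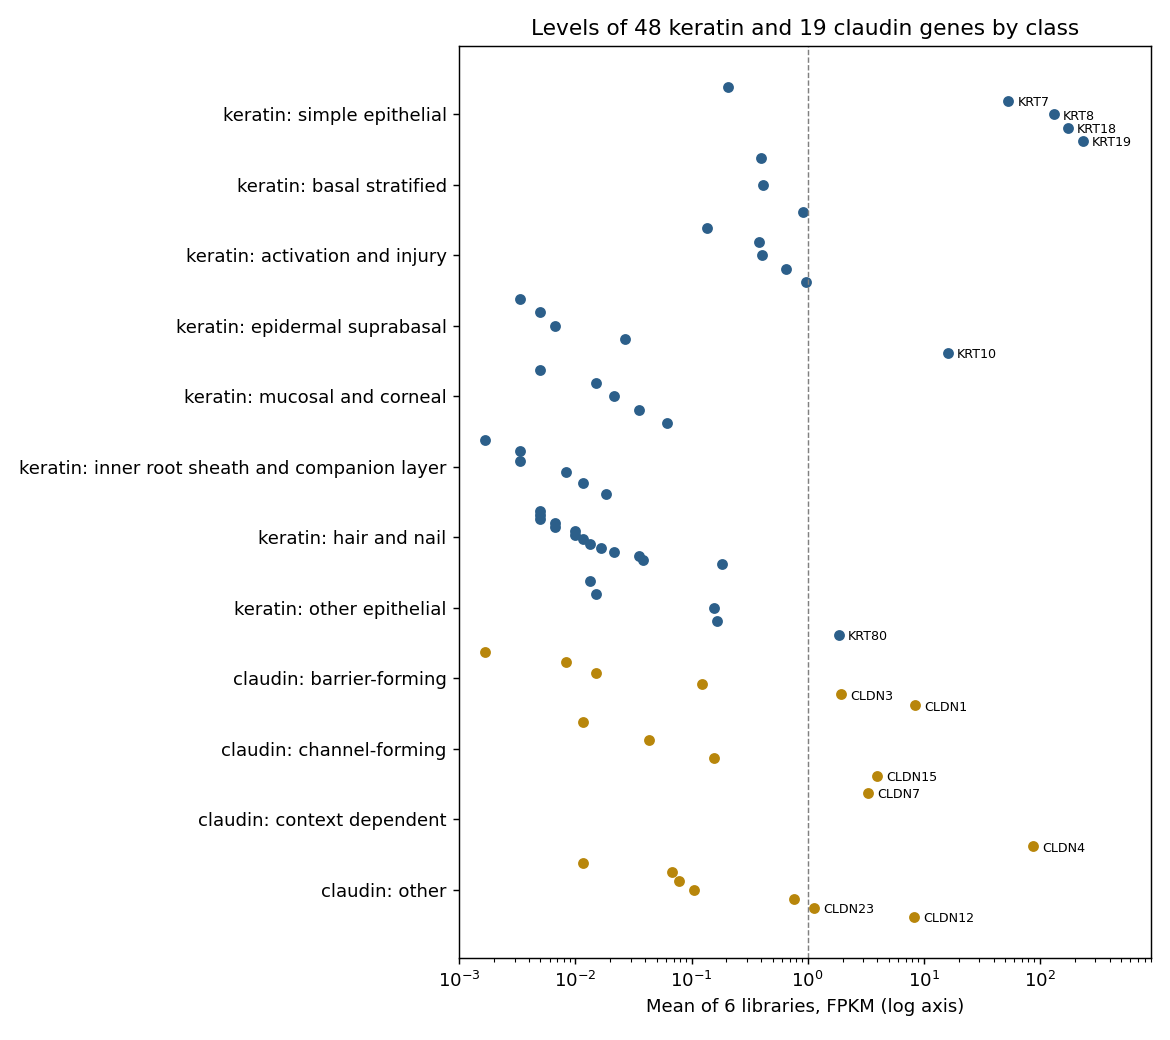
Mean FPKM over the 6 libraries (log axis) of each keratin (blue) and claudin (gold) gene, 1 point per gene, by class; names are given from 1 FPKM (dashed line) upward. KRT7, KRT8, KRT18 and KRT19 lie between 53.5 and 236.2 FPKM, and CLDN4 at 87.6 FPKM stands above the other claudins.

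Some upstream sequences are shown because they let genes of the same cluster with very different levels be compared. Keratins without a row, KRT28 among them, were left out of the gene order used here. KRT10 and KRT27 are successive keratin rows on chromosome 17, with 35582 bp between them, and held 16.2 and 0.012 FPKM on average. CLDN3 is shown for the claudins. The lines give the 100 bases just before the RefSeq start in GRCh38.p14, 5′ to 3′, all from the minus strand and none overlapping a GENCODE exon. Capitals mark TATA box letters (TATAAA) in the keratins and GC box letters (GGGCGG or its reverse complement) in CLDN3.
KRT10, chr17:40822615-40822714: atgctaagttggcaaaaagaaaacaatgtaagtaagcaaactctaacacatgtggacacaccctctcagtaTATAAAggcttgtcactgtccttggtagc
KRT27, chr17:40782551-40782650: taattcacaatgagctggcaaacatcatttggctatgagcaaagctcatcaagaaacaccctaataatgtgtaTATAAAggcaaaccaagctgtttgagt
CLDN3, chr7:73770271-73770370: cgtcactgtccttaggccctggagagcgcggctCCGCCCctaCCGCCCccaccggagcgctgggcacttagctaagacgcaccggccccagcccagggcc

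KRT10 and KRT27 carry the same TATA letters, 29 and 27 bases before their starts. RefSeq upstream windows were present for 43 of the 67 genes, and in those 250 bases TATAAA on either strand was found in 16 of 28 keratins, namely 1 of the 2 that passed the filter (KRT10) and 15 of the 26 that did not. None of 15 claudins held it, against 10.7% of all 35116 windows. The GC box was in 4 of 6 claudins that passed the filter (CLDN1, CLDN3, CLDN4 and CLDN15), in 3 of 9 other claudins, in 4 of 26 keratins under the filter, and in 42.6% of all windows. AP-1 letters (TGANTCA, both strands, letters that cannot overlap the other motifs) were in CLDN2, CLDN4, CLDN15 and CLDN16 and in no keratin window, against 6.57% of all windows. These are matches of letters, and binding was not measured here.

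Among simple keratins the order was the same in all 6 libraries. KRT19, a type I keratin of ducts and glands, was highest at 234.19, 217.44 and 244.28 FPKM in control replicates 1 to 3 and 235.62, 258.53 and 226.96 FPKM in SK4 replicates 1 to 3. KRT18 followed at 173.27, 170.96 and 178.71 FPKM with the control plasmid against 169.83, 181.67 and 171.66 FPKM with the SK4 plasmid. Its type II partner KRT8 held 131.06, 124.14 and 139.99 FPKM, and 129.51, 138.18 and 129.04 FPKM. The groups overlapped for all 3 genes, and control replicate 3 and SK4 replicate 2 held the highest value of their group in each.

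KRT7, the second type II keratin of simple epithelia, was at 55.99, 50.12 and 51.21 FPKM with the control plasmid against 53.11, 57 and 53.7 FPKM with the SK4 plasmid. Ranges over the 6 libraries did not overlap between any neighbours in the order KRT19, KRT18, KRT8, KRT7, KRT10, KRT80, so each step was larger than the spread between libraries. Among 18000 protein-coding rows, KRT19 ranked 152, KRT18 ranked 217, KRT8 ranked 294 and KRT7 ranked 758 by mean FPKM. KRT20, the simple keratin of intestinal epithelium, was low at 0.15 to 0.29 FPKM.

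The balance of partners varied little. Summed type I keratins were at 425.6 ± 16.97 FPKM with the control plasmid against 434.2 ± 22.6 FPKM with the SK4 plasmid, and summed type II keratins at 187.9 ± 8.65 and 191.4 ± 7.38 FPKM (SD, n = 3 each). Type I transcripts were thus in excess by a ratio of 2.23 to 2.30 in single libraries. KRT8 over KRT18 was 0.726 to 0.783 in the control and 0.752 to 0.763 in the SK4 libraries. KRT19 over KRT18 was 1.27 to 1.37 in the control and 1.32 to 1.42 in the SK4 libraries.

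Keratins of stratified epithelium were detected, but far lower than their simple counterparts. The basal pair KRT5 and KRT14 averaged 0.393 and 0.915 FPKM, and KRT15, another basal keratin, 0.41 FPKM. Mean KRT8 was 336 times mean KRT5, and mean KRT18 was 191 times mean KRT14. KRT14 was at 0.94, 0.89 and 0.51 FPKM with the control plasmid against 0.85, 1.2 and 1.1 FPKM with the SK4 plasmid, with overlapping groups.

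Of the activation keratins, KRT17 was highest at 0.75 to 0.96 FPKM with the control plasmid against 0.91 to 1.24 FPKM with the SK4 plasmid. It and KRT14 lay just under the filter, each reaching 1 FPKM in fewer than 3 libraries. KRT6A held 0.91, 0.42 and 0.37 FPKM with the control plasmid against 0.82, 0.66 and 0.72 FPKM with the SK4 plasmid. KRT6B averaged 0.408 and KRT6C 0.135 FPKM, and these near-identical copies could share reads. KRT16 held 0.33, 0.35 and 0.26 FPKM with the control plasmid against 0.36, 0.43 and 0.57 FPKM with the SK4 plasmid. Its SK4 values all lay above its control values, by as little as 0.35 against 0.36, and 904 of 21757 genes under the filter (4.15%) had groups that did not overlap. Its pseudogene KRT16P2 averaged 1.40 FPKM, more than KRT16 itself, so the level of KRT16 is uncertain.

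KRT10 was the one keratin of stratified epithelium that passed the filter, without its epidermal partner. It was at 16.81, 16.43 and 16.1 FPKM with the control plasmid against 16.12, 16.29 and 15.5 FPKM with the SK4 plasmid, with overlapping groups and a coefficient of variation of 2.67% over the 6 libraries. KRT1, the type II partner it has in epidermis, averaged 0.027 FPKM. KRT2, KRT9 and KRT77, the other suprabasal keratins, were each at 0.02 FPKM or less in every library. Of 11 other genes of epidermal differentiation with a row, 2 passed the filter. SFN, the 14-3-3 sigma gene, was high at 112.57 to 120.84 FPKM, and CNFN was at 1.23 to 2.1 FPKM. Filaggrin (FLG) averaged 0.0033 FPKM and involucrin (IVL) 0.015 FPKM, which were named after their values were seen. TP63, the master regulator of basal stratified cells, averaged 0.093 FPKM and was named in the same way.

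KRT80, a type II keratin found in many epithelia, was the sixth keratin to pass the filter. It held 1.69, 1.76 and 1.82 FPKM with the control plasmid against 1.83, 2.15 and 1.89 FPKM with the SK4 plasmid. The groups did not overlap, by 0.01 FPKM. Of the 14 hair and nail keratins with a row, 13 averaged under 0.1 FPKM, and KRT81 was highest at 0.183 FPKM. Over all keratins, 23 of 48 rested on fewer than 10 fragments summed over the 6 libraries, as estimated from depth and the longest annotated transcript. At such counts a gene listed at 0 in 1 library and above 0 in another cannot be told from sampling.

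Keratins that passed the filter lay at the ends of the cluster on chromosome 12 but inside the one on chromosome 17. On chromosome 12 of GRCh38, 24 keratins with a row spanned from KRT80 (52168996 to 52192000, minus strand) to KRT18 (52948871 to 52952901, plus strand). The 4 that passed the filter were the first, second, 23rd and last in order, KRT80, KRT7, KRT8 and KRT18. The 20 between them averaged 0.65 FPKM or less, with KRT6A highest. KRT18 is the one type I gene in this cluster, and its annotated span overlaps that of KRT8 (52897187 to 52949954, minus strand) on the opposite strand. On chromosome 17 only KRT10 (40818117 to 40822595) and KRT19 (41523617 to 41528308), both on the minus strand, passed among 24. KRT15, 1087 bp from KRT19, averaged 0.41 FPKM, so mean KRT19 was 576 times that of its neighbour.

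**Figure D2:**
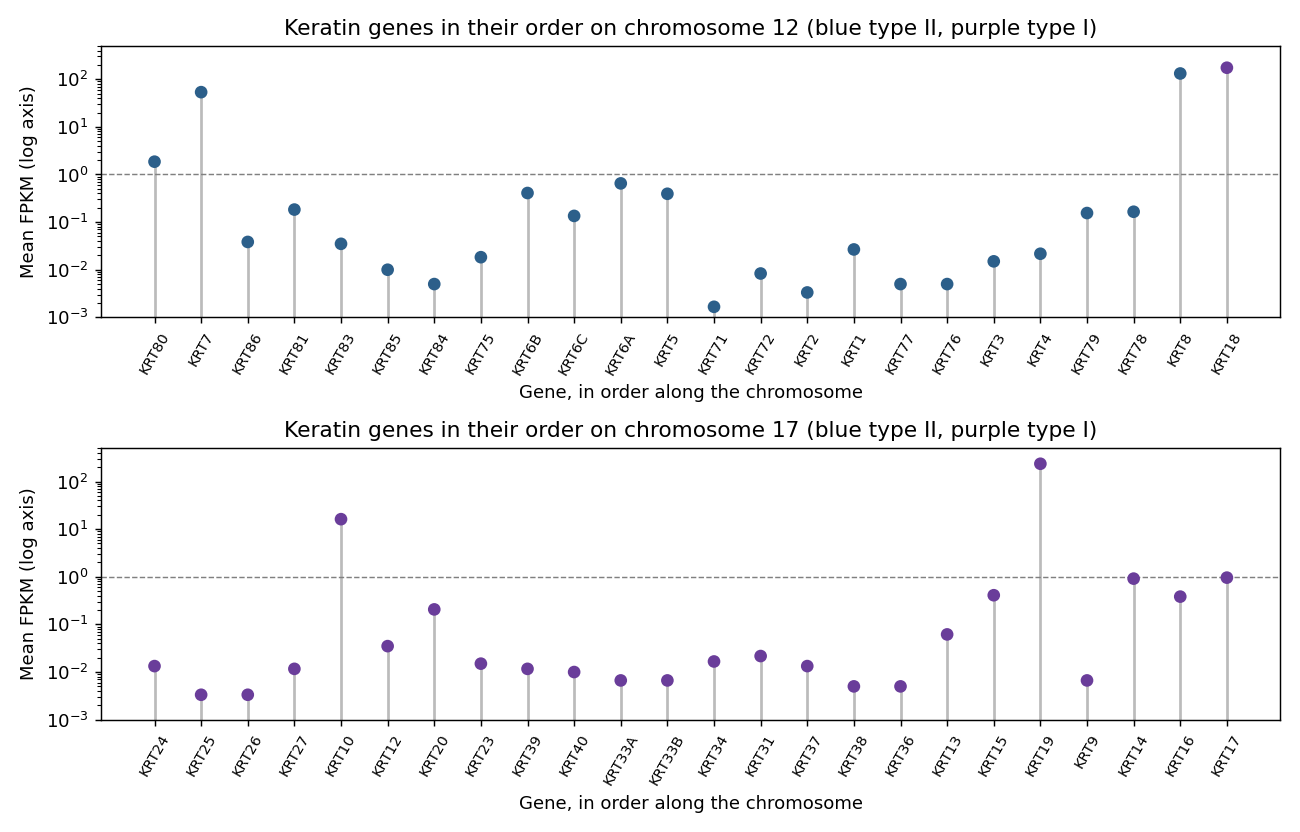
Mean FPKM over the 6 libraries (log axis) of each keratin gene, in order along chromosome 12 (top) and chromosome 17 (bottom); blue points are type II and purple points type I keratins, and the dashed line marks 1 FPKM. On chromosome 12 the 4 genes above the line are the outermost pair at each end, and on chromosome 17 they are KRT10 and KRT19.

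Some keratin reads are open to doubt. KRT8 has 17 pseudogene rows whose means sum to 3.52 FPKM, 2.67% of the mean of KRT8, with KRT8P12 alone at 2.71 FPKM. KRT18 has 32 such rows summing to 0.442 FPKM, 0.253% of the mean of KRT18. KRT7-AS, an antisense transcript at the KRT7 locus, held 3.94 to 5.73 FPKM. The libraries kept the strand, but whether counting used it is not given in the sources used here, and KRT7 also overlaps the annotated span of KRT86.

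Claudin expression was dominated by CLDN4, which was 74.4% to 77.1% of the summed claudin FPKM in the 6 libraries. Of the 19 claudins with a row, 7 passed the filter, 4 others reached 0.1 FPKM in at least 3 libraries, and 8 were lower. GENCODE release 29 lists 24 claudin genes, and CLDN8, CLDN17, CLDN24, CLDN25 and CLDN34 had no row in the table used here.

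CLDN4, whose effect on permeability depends on the claudins around it, held 87.29, 85.77 and 83.4 FPKM with the control plasmid against 91.88, 89.13 and 87.83 FPKM with the SK4 plasmid. All 3 SK4 values lay above all 3 control values, the closest being 87.83 and 87.29 FPKM. CLDN7, placed in the same class, was at 3.03 to 3.35 FPKM with the control plasmid against 3.04 to 3.62 FPKM with the SK4 plasmid.

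Of the barrier-forming claudins, CLDN1 was highest, at 8.98, 8.66 and 6.87 FPKM with the control plasmid against 9.51, 7.6 and 8.88 FPKM with the SK4 plasmid. CLDN3 held 2.14, 1.73 and 1.9 FPKM with the control plasmid against 1.7, 2.07 and 2.11 FPKM with the SK4 plasmid. Both genes had overlapping groups. CLDN3 (73768997 to 73770270, minus strand) and CLDN4 (73799542 to 73832693, plus strand) are neighbours on chromosome 7, 29271 bp apart, yet CLDN4 was 40.8 to 54.0 times CLDN3 in single libraries. CLDN14 averaged 0.123 FPKM, CLDN11 0.015 FPKM and CLDN19 0.0017 FPKM. CLDN5, the claudin of endothelium, averaged 0.0083 FPKM.

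Among channel-forming claudins CLDN15, a cation channel of intestinal epithelium, was the one that passed. It held 4.15, 4.06 and 3.38 FPKM with the control plasmid against 4.29, 3.87 and 3.93 FPKM with the SK4 plasmid. CLDN2, the cation channel of leaky epithelia, averaged 0.157 FPKM, CLDN16, which takes part in renal magnesium transport, 0.043 FPKM, and CLDN10 0.012 FPKM.

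Of the remaining claudins, CLDN12 was at 9.05, 9.1 and 6.66 FPKM with the control plasmid against 9.31, 7.35 and 8.17 FPKM with the SK4 plasmid. CLDN23 was at 1.15 to 1.19 FPKM with the control plasmid against 0.99 to 1.23 FPKM with the SK4 plasmid. CLDN18, the claudin of stomach and lung, lay just under the filter at 0.61 to 0.96 FPKM. In the order CLDN4, CLDN1, CLDN12, CLDN15, CLDN7, CLDN3, CLDN23, the ranges of CLDN1 and CLDN12 overlapped, and CLDN1 was higher in 4 of 6 libraries. The ranges of CLDN15 and CLDN7 also overlapped, although CLDN15 was higher in 6 of 6 libraries. All other neighbours were apart.

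**Figure D3:**
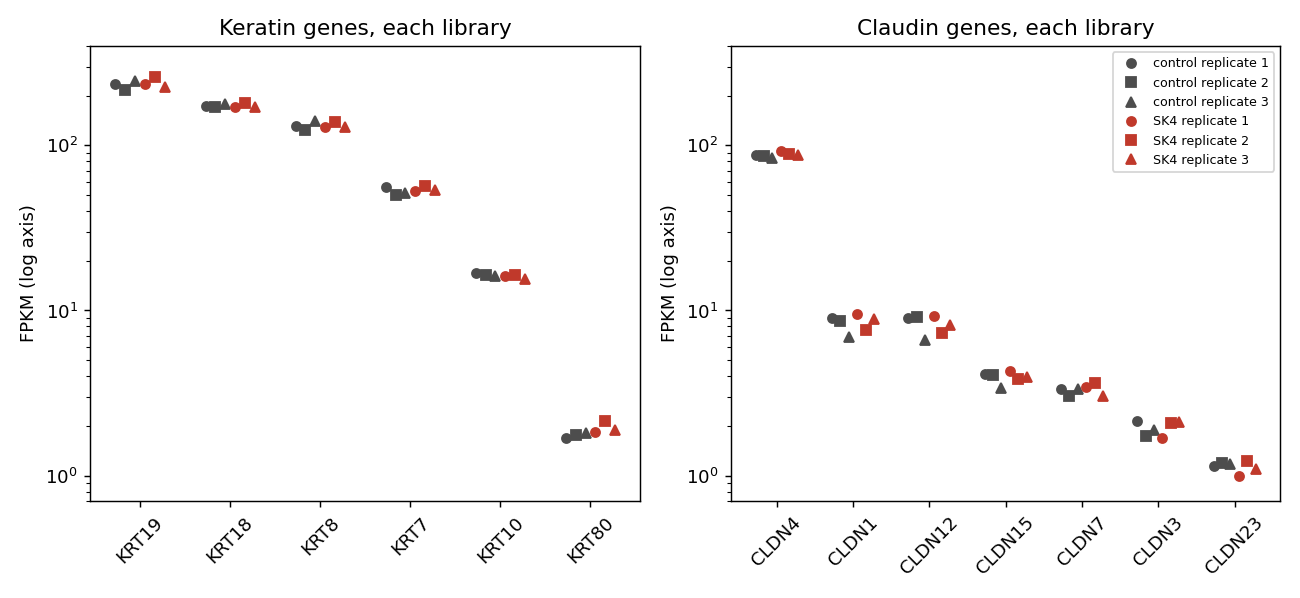
FPKM (log axis) of the 6 keratins (left) and 7 claudins (right) that passed the filter, 1 point per library, grey for control and red for SK4, with a symbol for each replicate number. Levels within a gene lie close together, and the lowest CLDN1 and CLDN12 points are control replicate 3, at 6.87 and 6.66 FPKM.

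No keratin or claudin gene differed between the SK4 and control libraries by the test. Of the 13 that passed the filter, 0 were called at an adjusted p below 0.05 (limma on log2(FPKM + 0.5), adjusted over 11139 genes), where 0.00898% of all genes were called, that is KCNN4 alone. At an unadjusted p below 0.05 there were 0 of 13, against 1.65% of all genes, and each adjusted p was 0.99997. With no filter on low values, 0 of 67 were called (0.00304% of 32896 genes).

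The intervals bound how large a difference could have been missed on the scale of the limma fit. This scale adds a constant to FPKM and so understates the change of low genes. KRT18 had a log2 fold change of 0.00022 ± 0.037 (SE), with a 95% confidence interval of -0.086 to 0.086, and KRT8 one of 0.0066 ± 0.051, with an interval of -0.11 to 0.13. KRT19 (0.051, interval -0.091 to 0.19) and KRT7 (0.059, interval -0.063 to 0.18) had somewhat wider intervals. On this scale the interval of each of the 13 genes lay inside 1.5-fold in either direction, as for 96.8% of all tested genes. Among keratins the interval of KRT80 reached the largest fold, 1.24, and among claudins that of CLDN1, 1.28, both on the same scale. Folds of FPKM itself were not computed. They would be larger for low genes such as KRT80 and CLDN23, and the ranking of genes could differ.

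KRT80 had the largest fitted log2 fold change in size of the 13 genes, 0.12 (SE 0.083, interval -0.073 to 0.31). Its means were 1.76 ± 0.0651 FPKM with the control plasmid and 1.96 ± 0.170 FPKM with the SK4 plasmid (SD, n = 3 each), a ratio of means of 1.11. CLDN4 had the smallest unadjusted p, 0.0861 in the limma fit, with 85.5 ± 1.96 FPKM with the control plasmid against 89.6 ± 2.07 FPKM with the SK4 plasmid and a log2 fold change of 0.068 (interval -0.012 to 0.15). An exact permutation test, two-sided, gave p = 0.1 for each, the smallest value possible with 3 against 3 libraries. They were the 2 of 13 genes whose groups did not overlap, both with higher SK4 values; 5.34% of all tested genes were apart in either direction and 3.53% with higher SK4 values. KRT10 and CLDN23 had negative estimates, -0.041 and -0.061. Estimates were positive for 11 of 13 genes, against 57.9% of all tested genes, and the median was 0.029 for keratins and 0.046 for claudins, against 0.011 over all tested genes. The direction of KRT8, KRT18, KRT19, CLDN1, CLDN3, CLDN7, CLDN12 and CLDN15 turned in at least 1 alternative fit. Under a common library median KRT18, KRT8 and CLDN12 turned negative.

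**Figure D4:**
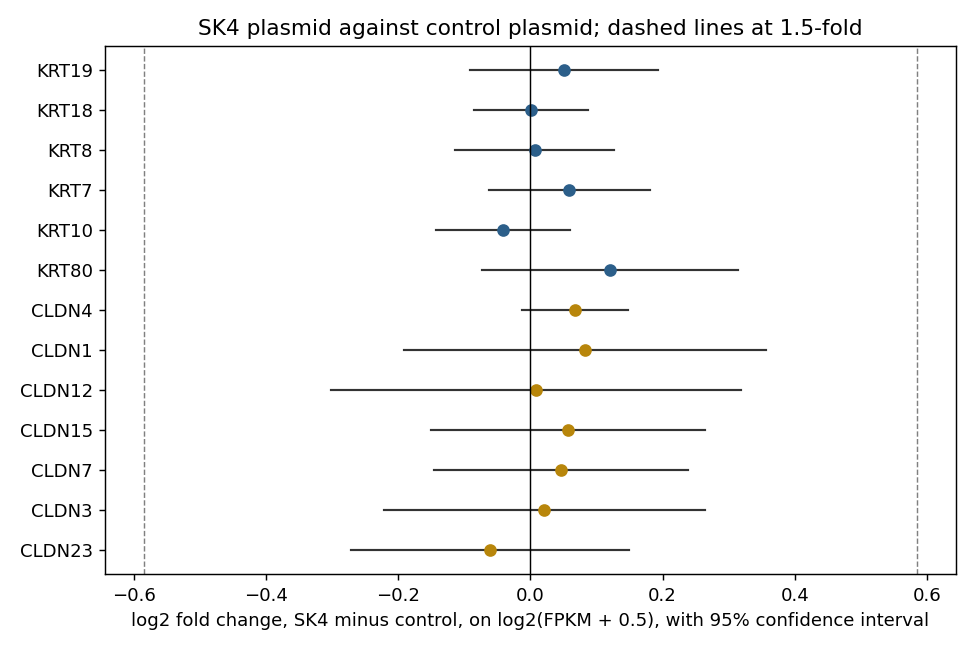
Fitted log2 fold change (SK4 minus control, on log2(FPKM + 0.5)) of the 13 genes, with bars for the 95% confidence interval; the solid line is no difference and the dashed lines are 1.5-fold in either direction. Every interval includes 0 and stays inside the dashed lines.

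Libraries of the same group also varied. Over tested genes, the deviations of control replicate 3 and SK4 replicate 2 from their group means correlated (r = 0.528 across genes, which are not independent replicates). This was the highest r of any control and SK4 pair, and deviations within a group cancel, so the r values depend on each other. It does not make SK4 replicate 2 the outlying SK4 library: median deviations over all tested genes were 0.049 in SK4 replicate 1 and -0.036 in SK4 replicate 2. All 6 keratins were higher in SK4 replicate 2 than the mean of the other SK4 libraries, as were 4479 of 11139 tested genes. In both control replicate 3 and SK4 replicate 2, 4 of 6 (KRT8, KRT18, KRT19 and KRT80) were higher than in the rest of their group. Of all tested genes, 21.3% were higher in both and 51.1% lower in both. KRT19 deviated by 0.11 in control replicate 3 and 0.16 in SK4 replicate 2 on the log2 scale.

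The claudins were mixed: 4 of 7 (CLDN1, CLDN4, CLDN12 and CLDN15) were lower in both libraries, 57.1% against 51.1% of all tested genes, and 2 of 7 (CLDN7 and CLDN23) were higher in both. CLDN7 deviated by 0.066 in control replicate 3 and 0.14 in SK4 replicate 2, and CLDN23 by 0.00010 and 0.17. Among those lower in both, CLDN4 deviated by -0.053 and -0.011. CLDN12 deviated by -0.42 in control replicate 3 and -0.23 in SK4 replicate 2, CLDN1 by -0.34 and -0.26, and CLDN15 by -0.25 and -0.076. The median over all tested genes was -0.097 and -0.036. It moved with transcript length: genes with a longest transcript under 1500 nt had medians of 0.011 and 0.00075, and genes of at least 4000 nt had -0.18 and -0.080. CLDN12 and CLDN1 have longest transcripts of 3565 and 3481 nt, KRT19 of 1390 nt and KRT80 of 3894 nt. The part of transcript length in these deviations was not tested. Without both libraries, 0 keratins or claudins were called, and the estimates were 0.035 for KRT19, 0.056 for CLDN1 and -0.054 for CLDN12.

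**Figure D5:**
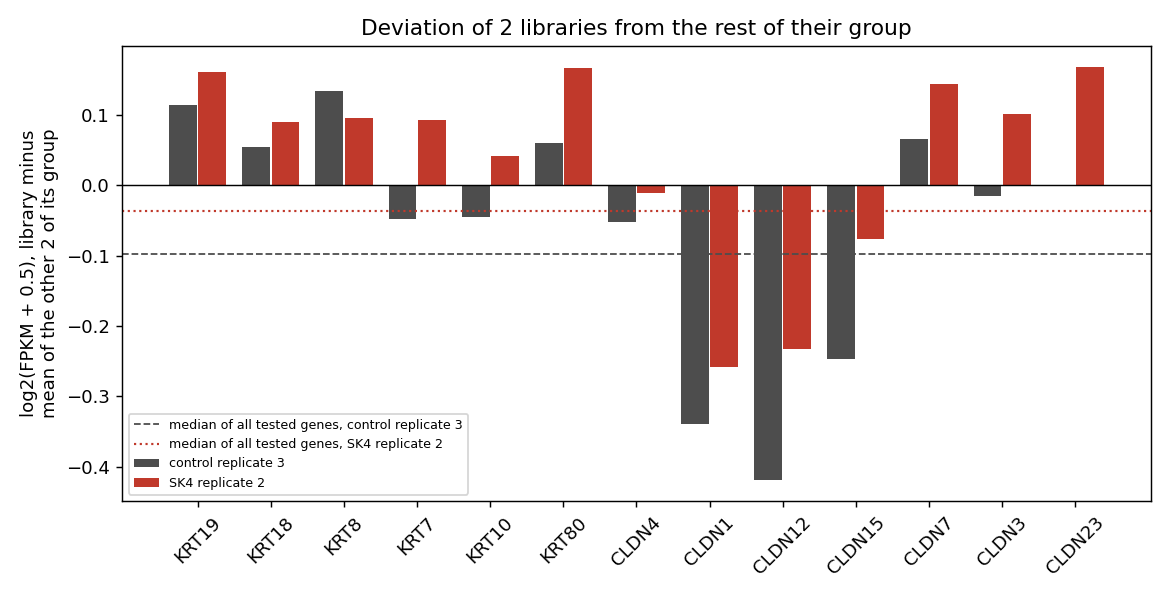
Difference in log2(FPKM + 0.5) between control replicate 3 (grey) or SK4 replicate 2 (red) and the mean of the other libraries of its group, for the 13 genes; the dashed and dotted lines are the medians over all tested genes. KRT19, KRT18, KRT8 and KRT80 are above 0 in both, CLDN7 is above 0 in both, and CLDN1, CLDN12 and CLDN15 are below both medians.

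Genes of desmosomes, keratin anchoring and tight junctions were present in part. Of them 0 were called, where 0.00898% of all tested genes were, that is KCNN4 alone. Positive estimates made up 57.9% of all tested genes. Of 21 desmosome and keratin anchoring genes 11 passed the filter, 8 with positive and 3 with negative estimates (median log2 fold change 0.036, range -0.10 to 0.10). The highest was JUP, plakoglobin, at 18.33 to 19.56 FPKM with the control plasmid against 19.79 to 20.92 FPKM with the SK4 plasmid. It was the 1 of the 11 whose groups did not overlap, against 5.34% of all tested genes. Next were the linker PLEC, plectin, at 18.75 to 21.01 FPKM, and PKP3, plakophilin 3, at 14.67 to 16.58 FPKM. Desmoplakin (DSP), which ties keratins to desmosomes, averaged 1.41 FPKM. The desmosomal cadherin DSG2 averaged 4.6 FPKM, but DSC1, DSC2 and DSC3, its desmocollin partners, averaged 0.0033, 0.0017 and 0.005 FPKM. DSP, DSG2 and the desmocollins were named after their values were seen.

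Of 22 tight junction genes with a row 12 passed the filter, 8 with positive and 4 with negative estimates (median 0.034, range -0.18 to 0.092). The share of positive estimates over all tested genes was 57.9%. LSR, which builds tricellular contacts, was highest at 20.6 to 21.62 FPKM. F11R, a junctional adhesion molecule, followed at 12.12 to 12.53 FPKM with the control plasmid against 12.67 to 13.25 FPKM with the SK4 plasmid. It was the 1 of the 12 whose groups did not overlap, against 5.34% of all tested genes. The scaffold TJP3 was at 3.75 to 4.38 FPKM. The claudin-binding scaffold TJP1 averaged 2.62 FPKM and occludin (OCLN) 0.12 FPKM, both named after their values were seen. Of 15 epithelial regulators 5 passed, KLF4 (19.75 to 25.83 FPKM), ELF3 (18.46 to 19.6 FPKM), KLF5 (8.74 to 10.88 FPKM), ESRP2 and EHF, with a median of 0.029. GRHL2 and ESRP1, known for epithelial gene and splicing programmes, averaged 0.0067 and 0.005 FPKM and were named after their values were seen.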

How the data were processed

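Per the labels' protocols, polyadenylated RNA was captured, libraries were strand-marked with dUTP and 150 nt paired-end reads were sequenced. Per the submitters' processing notes, HISAT2 and GRCh38 were used; versions, counting tool and annotation are not given in the sources used here. Values deposited by the authors were FPKM, rounded to 2 decimals, in 1 table with a column per library. Depth was estimated from single-exon genes shorter than 160 nt, where values worth up to 5 fragments came out whole (tolerance 0.1) in 99.5% to 100% of cases. Intervals cover the spread between libraries.

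The filter kept genes that reached 1 FPKM in 3 or more of the 6 libraries. They were tested on log2(FPKM + 0.5), a scale that understates the change of low genes, with limma 3.58.1 in R 4.3.3 (group as the only term, trended and robust prior variance, Benjamini-Hochberg adjustment over all tested genes, called below 0.05). The fit was tested on simulated data. Coordinates and transcript lengths came from GENCODE release 29 on GRCh38, promoters from RefSeq. All members that passed the filter, members of the main classes, and the 3 highest genes of each partner list were named. The members follow from a rule on names alone, but this rule, the classes and the lists were set with earlier results of these data known. The alternatives were leaving out libraries, a replicate block, other pseudocounts, filters and scalings, library weights and a constant prior variance. The values of some list genes are not reported here.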

Additional observations from a re-analysis of the deposited data

How the results depend on the processing

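Over 16 alternative fits, 0 keratins or claudins were called in any, and the lowest adjusted p of the 13 genes was 0.627 (limma). KCNN4 was called in each, and was the only gene called except without both control replicate 3 and SK4 replicate 2, where 4 genes were. Of 208 estimates 183 kept their direction, and none exceeded 0.17 in size on the log2 scale. KRT7, KRT10, KRT80, CLDN4 and CLDN23 kept theirs in all 16 fits. The fits with other filters, a constant prior variance or a replicate block could not change an estimate. Their directions were fixed in advance, yet they count among the 183.

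Estimates that turned were -0.011 for KRT18, -0.0043 for KRT8 and -0.0027 for CLDN12 with a common library median; -0.0063 for CLDN12 with quantile normalization; -0.0026 for KRT18, -0.097 for CLDN12, -0.022 for CLDN15 and -0.013 for CLDN7 with library weights; and -0.011 for KRT18, -0.054 for CLDN12 and -0.018 for CLDN3 without both libraries. Leaving out 1 library at a time gave -0.0028 to 0.091 for KRT19, -0.030 to 0.019 for KRT18, -0.035 to 0.051 for KRT8, -0.030 to 0.17 for CLDN1, -0.13 to 0.086 for CLDN12, -0.025 to 0.11 for CLDN15, -0.0015 to 0.11 for CLDN7 and -0.037 to 0.099 for CLDN3. The cause was not tested. The keratin median was -0.014 to 0.047 and the claudin median -0.025 to 0.083 in those fits. The CLDN1, CLDN12 and CLDN15 estimates turned negative without control replicate 3.

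Over tested genes, the deviations of same-numbered libraries correlated positively for number 1 (r = 0.306 across genes) and negatively for numbers 2 and 3 (r = -0.410 and -0.154). The numbers were thus not taken to pair the libraries. With the replicate number as a block, 1 gene was called in all and the estimates were the same, such as 0.051 for KRT19. Of the 67 genes, 54 lay under the filter, and 28 of the 67 rested on fewer than 10 estimated fragments over the 6 libraries, too few to show small differences.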

Other observations

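Some genes under the filter had groups that did not overlap, and their values are given without a reading. KRT3, a corneal keratin, was listed at 0 in the 3 control libraries and at 0.04, 0.02 and 0.03 FPKM with the SK4 plasmid, an estimated 8 fragments in all. CLDN5 was listed at 0 in the control and at 0.01, 0.02 and 0.02 FPKM with the SK4 plasmid, an estimated 5 fragments. Outside both families, SPRR1B, a cornified envelope precursor gene, held 0.18, 0.17 and 0.05 FPKM with the control plasmid against 0.49, 0.7 and 0.42 FPKM with the SK4 plasmid. With no filter on low values the limma adjusted p was 0.973 for all 3 genes. They were picked after their values were seen, and 4.15% of genes under the filter had groups that did not overlap.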
